A study of Mus musculus with 18 samples.

Results

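Immunoglobulin gene segments were followed in mandibular first molar tooth extraction sockets of mice with periodontitis and of control mice. They were taken as every row of the gene count table annotated as an immunoglobulin constant (C), variable (V), diversity (D) or joining (J) gene, with pseudogenes left out, which gave 264 of 54532 rows. There were 13 C genes, 218 V segments, 19 D segments and 14 J segments. Bulk RNA was sequenced in 18 libraries, with 3 biological replicates in each of 6 groups: periodontitis at 0 d, 3 d and 7 d and control at 0 d, 3 d and 7 d. No source used here states the strain, sex or age of the mice, how periodontitis was brought about or whether animals were pooled, and nothing in the labels pairs a periodontitis animal with a control animal. The labels call the tissue the mandibular first molar. The bone genes Col1a1, Bglap, Ibsp and Dmp1 were counted in all 18 libraries. Their lowest level was 462 CPM (counts scaled to a common library size), for Bglap. The odontoblast gene Dspp had a median of 1.11 CPM and the enamel gene Amelx had 6 counts in all. Dspp was at 589, 9.14 and 8.18 CPM in 0 d control and 69.5, 29.7 and 15.9 CPM in 3 d control. It was at 18.7, 2.39 and 0.627 CPM in 7 d control and no higher than 1.59 CPM in periodontitis libraries. The enamel gene Ambn had 4.65 to 41.8 CPM in control libraries, against 0.114 to 2.95 CPM in periodontitis libraries. The part of tooth tissue in the arm differences was not tested.

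An antibody is built of paired heavy and light chains. Each developing B cell joins 1 V, D and J segment of the heavy chain locus and 1 V and J segment of a light chain locus, kappa or lambda, and splices the joined exon to a constant gene. The heavy constant gene sets the class: naive B cells make IgM and IgD (Ighm, Ighd), and activated B cells can switch to IgG (Ighg1, Ighg2b, Ighg2c, Ighg3), IgE (Ighe) or IgA (Igha). Plasma cells, the secreting stage, hold far more immunoglobulin RNA than other B cells. In these bulk samples fewer B lineage cells and less RNA per cell cannot be told apart. B cells form in bone marrow.

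The germline letters that the counts refer to are shown for the segments that recur in the results, taken from GENCODE M21 transcripts of build GRCm38 by gene identifier, which matched for all 264 rows. For each V segment the last 60 bases of its transcript are given 5′ to 3′ on the coding strand. Capitals mark the match to TANTNNTGN, the codons around the conserved second cysteine, after which the joined part of the antigen-binding loop begins. Of the 218 V segments, 209 (95.9%) held this motif in their last 60 bases, read on the coding strand only. Ighv11-2 and Igkv14-126 are shown as the leading heavy and kappa segments of libraries taken at 0 d, Igkv19-93, Igkv8-24, Ighv1-55, Ighv14-3 and Igkv1-88 because they passed a test, Igkv1-117 and Igkv1-110 as abundant near-copies, and Ighv1-12 and Igkv6-32 because 1 library held most of their counts.
Ighv11-2, chr12:114048241-114048812, minus strand: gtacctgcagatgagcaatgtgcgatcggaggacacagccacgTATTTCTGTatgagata
Igkv14-126, chr6:67896172-67896642, plus strand: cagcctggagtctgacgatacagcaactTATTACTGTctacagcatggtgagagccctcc
Igkv19-93, chr6:68736297-68736780, minus strand: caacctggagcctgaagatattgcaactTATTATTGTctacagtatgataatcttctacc
Igkv8-24, chr6:70216858-70217421, minus strand: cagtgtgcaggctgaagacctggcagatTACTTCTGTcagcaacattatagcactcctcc
Ighv1-55, chr12:115208095-115208591, minus strand: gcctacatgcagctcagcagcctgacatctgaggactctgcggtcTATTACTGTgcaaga
Ighv14-3, chr12:114059845-114060321, minus strand: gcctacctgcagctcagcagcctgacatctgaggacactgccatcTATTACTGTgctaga
Igkv1-88, chr6:68862265-68863031, minus strand: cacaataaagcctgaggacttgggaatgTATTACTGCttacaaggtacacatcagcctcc
Igkv1-117, chr6:68121046-68121827, plus strand: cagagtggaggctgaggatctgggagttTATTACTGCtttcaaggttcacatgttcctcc
Igkv1-110, chr6:68270485-68271267, plus strand: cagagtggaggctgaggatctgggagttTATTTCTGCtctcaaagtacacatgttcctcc
Ighv1-12, chr12:114615850-114616318, minus strand: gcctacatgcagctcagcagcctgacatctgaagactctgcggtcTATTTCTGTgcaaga
Igkv6-32, chr6:70074024-70074603, minus strand: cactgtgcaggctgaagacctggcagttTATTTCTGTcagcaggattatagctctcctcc

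The J segments carry the next conserved stretch, a tryptophan or phenylalanine followed by glycines. Capitals mark TGGGG, any 4 bases and GG in heavy J segments, found in 4 of 4, and TTCGG, any 4 bases and GG in kappa and lambda J segments, found in 4 of 5 of each, on the coding strand. Ighj4 and Igkj5 are shown as the J segments with the most counts in their loci, and Igkj3, a J segment known as non-functional in the mouse, because it lacks the motif and was still counted, with 5, 5 and 13 counts in the 0 d control libraries and 36 in all.
Ighj4, chr12:113428514-113428567, minus strand: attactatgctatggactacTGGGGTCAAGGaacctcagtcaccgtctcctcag
Igkj5, chr6:70723886-70723927, plus strand: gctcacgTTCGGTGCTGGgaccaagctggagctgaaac
Igkj3, chr6:70723223-70723260, plus strand: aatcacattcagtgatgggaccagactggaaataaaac

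Of the 264 segments, 223 had a count in at least 1 library and 56 passed the low-count filter and could be tested. The tested ones were 11 of 13 C genes, 43 of 218 V segments (18 heavy, 23 kappa and 2 lambda), 2 of 14 J segments (Ighj4 and Igkj5) and none of 19 D segments. Since a segment can pass the filter through 1 group where it is high, counts over these 56 describe the tested segments only. The segments drew 66581 counts in all, from 750 in 1 library of 7 d periodontitis to 9346 in 1 library of 0 d control, out of 14139830 to 17763605 counts per library. Constant genes held 82.3% of them, V segments 16.8%, J segments 0.829% and D segments 0.0150%. The 155 V pseudogenes, which the rule leaves out, drew 98 counts.

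Summed over all 264 segments, immunoglobulin transcripts were lower on average in periodontitis than in control sockets on each day, but the libraries overlapped. At 0 d the sum was 55.2, 454 and 137 CPM in periodontitis, against 288, 523 and 570 CPM in control. At 3 d it was 47.1, 131 and 97.7 CPM in periodontitis, against 108, 232 and 222 CPM in control. At 7 d it was 155, 48.7 and 243 CPM in periodontitis, against 241, 368 and 198 CPM in control. On each day 1 periodontitis library lay within the control range. Within the control arm the 3 libraries of 3 d all lay below the 3 of 0 d, with a ratio of the means of 0.407, while the other pairs of groups compared overlapped.

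**Figure D1:**
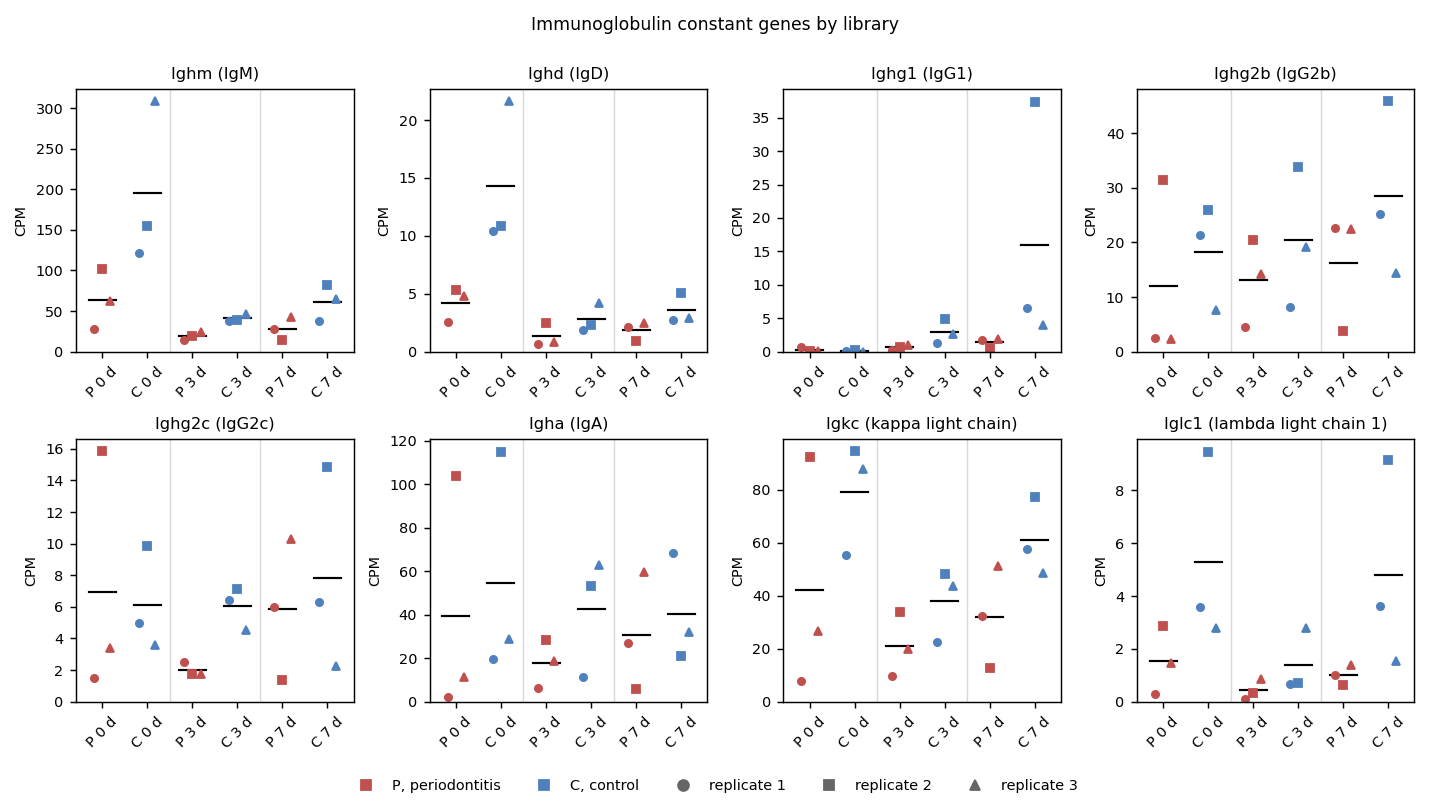
Level of immunoglobulin constant genes in each library (y axis, CPM), with 1 panel per gene, each periodontitis group (P) left of its control group (C) at 0 d, 3 d and 7 d, a point per library and a line at the mean of 3. Ighm at 0 d sits between 27.5 and 102 CPM in periodontitis and between 122 and 308 CPM in control, and Ighg1 reaches 37.4 CPM in 1 library of 7 d control.

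Ighm and Ighd, the constant genes of IgM and IgD, were the heavy constant genes that separated the arms at 0 d. Ighm (ENSMUSG00000076617, chr12:113418558-113422730, minus strand) had 27.5, 102 and 62.3 CPM in 0 d periodontitis, against 122, 154 and 308 CPM in 0 d control. All 3 periodontitis libraries lay below all 3 control libraries. Its fitted log2 fold change, periodontitis over control, was -1.61 ± 0.46 (SE), with an adjusted p of 0.0421 in edgeR's quasi-likelihood test, Benjamini-Hochberg adjusted over 18697 genes. An adjusted p under 0.05 is taken as past the test. Ighd (ENSMUSG00000104213, chr12:113406604-113416324, minus strand), the neighbouring gene that is spliced from the same primary transcript in naive cells, had 2.58, 5.29 and 4.78 CPM in 0 d periodontitis, against 10.4, 10.9 and 21.6 CPM in 0 d control. These groups did not overlap either, and the log2 fold change was -1.76 ± 0.50 with an adjusted p of 0.0429. Both calls stood near the threshold: without replicate 3 of 0 d control the adjusted p was 0.203 for Ighm and 0.188 for Ighd, and without replicate 1 of 0 d periodontitis it was 0.165 and 0.180. Without replicate 2 of 0 d control it was 0.0749 for Ighm and 0.0764 for Ighd, and without replicate 3 of 0 d periodontitis 0.103 and 0.0911. Leaving out replicate 1 of 3 d control, 3 of 7 d control, 1 or 2 of 3 d periodontitis or 1 of 7 d periodontitis moved Ighm to between 0.0519 and 0.0579. Leaving out replicate 3 of 7 d control moved Ighd to 0.0522, and replicate 1 of 7 d periodontitis to 0.0549. In a fit of only the 0 d groups the adjusted p was 0.143 for Ighm and 0.0960 for Ighd, and without the 2 libraries with salivary gland transcripts 0.0595 and 0.0562.

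Among the 56 tested segments, 4 fell and none rose in periodontitis at 0 d, where 3.47% of all 18697 genes tested fell and 4.81% rose. The other 2 were the kappa V segments Igkv19-93 and Igkv8-24. Igkv19-93 had 0, 2 and 0 counts in 0 d periodontitis, against 10, 13 and 25 in 0 d control. That is 24.5-fold lower in periodontitis, with a counting interval of 6.43 to 208, and an adjusted p of 0.0348. Igkv8-24 had 0, 0 and 1 counts in 0 d periodontitis, against 11, 2 and 81 in 0 d control, so that 1 control library held most of its counts. It was 96.1-fold lower, with a counting interval of 16.8 to 3834 and an adjusted p of 0.0488, and without replicate 3 of 0 d control its adjusted p was 0.251. It kept an adjusted p under 0.05 in 5 of 18 fits with 1 library left out, and missed it without any 1 library of 0 d of either arm. For Igkv19-93 the adjusted p lay between 0.0708 and 0.144 without replicate 2 or 3 of 0 d control or replicate 1 or 3 of 0 d periodontitis. In a fit of only the 0 d groups it was 0.0945 for Igkv19-93 and 0.122 for Igkv8-24. The counting intervals cover counting error only. The median log2 fold change of the 56 segments was -1.07 and 42 were negative, beside a median of -0.02 over all genes tested. Libraries did not overlap for 9 of the 56, all lower in periodontitis, where 15.3% of all genes tested were lower without overlap.

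The remaining constant genes did not pass the test at 0 d. Igha had 2.28, 104 and 11.5 CPM in periodontitis, against 19.5, 115 and 28.9 CPM in control, which puts 1 library of each arm far above its fellows. Ighg2b had 2.46, 31.4 and 2.36 CPM in periodontitis, against 21.4, 25.9 and 7.63 CPM in control. Igkc (ENSMUSG00000076609, chr6:70726435-70726966, plus strand), the only kappa constant gene, had 7.87, 92.4 and 26.6 CPM in periodontitis, against 55.2, 94.6 and 87.9 CPM in control. Replicate 2 of 0 d periodontitis was the highest of its group for all 3 genes. Log2 fold changes were -0.48 ± 1.07 for Igha (adjusted p = 0.826), -0.61 ± 0.91 for Ighg2b (0.724) and -0.91 ± 0.66 for Igkc (0.414) in the same edgeR fit.

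At 3 d no segment passed the test in edgeR, against 0.0695% of all genes tested that rose and 0.0642% that fell. DESeq2 also called none, and 6 of the 56 had an unadjusted p under 0.05. Ighm had 14.5, 19.2 and 23.7 CPM in 3 d periodontitis, against 38.2, 38.7 and 45.8 CPM in 3 d control. The groups did not overlap, and the edgeR log2 fold change was -1.10 ± 0.46 with an adjusted p of 0.505. Libraries of 15 of the 56 lay lower in periodontitis without overlap, where 11.3% of all genes did, and none lay higher, where 9.16% did. The 56 had a median log2 fold change of -1.29, or -1.23 with segments at 0 counts in a group set to their bound, and 51 were negative.

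At 7 d edgeR called no segment and no gene at all (0% in each direction), with an unadjusted p under 0.05 for 7 of the 56 segments. In DESeq2 Ighg1 was called, and the share of all genes that DESeq2 called is not given here. Ighm had 28.0, 14.6 and 42.6 CPM in 7 d periodontitis, against 38.3, 82.1 and 64.8 CPM in 7 d control, and the groups overlapped. The median log2 fold change was -0.53. Libraries did not overlap for 4 segments that lay lower in periodontitis, Ighd, Ighg1, Igkv15-103 and Iglc1, where 6.74% of all genes did. They did not overlap either for 1 that lay higher, Igkv8-30, where 3.57% did. Igkv15-103 had no count in 7 d periodontitis, against 23, 1 and 1 in 7 d control. Igkv8-30 had 8, 2 and 2 counts, against 1, 0 and 0, so both rested on few counts.

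**Figure D2:**
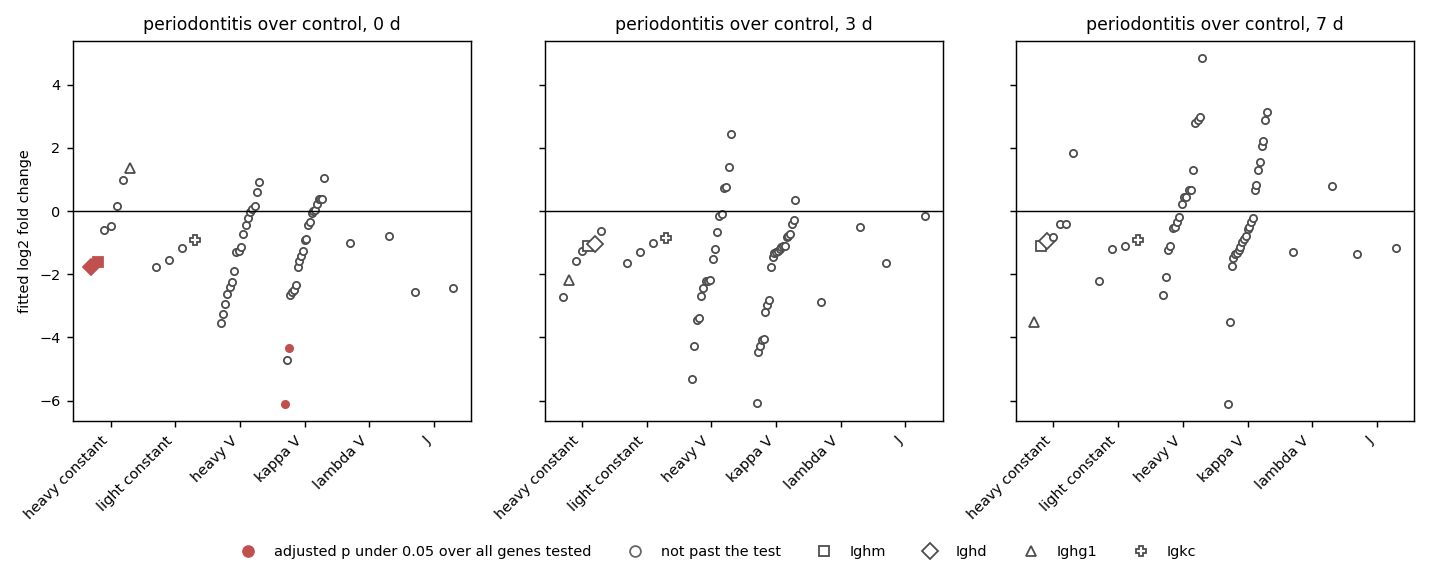
Fitted log2 fold change, periodontitis over control (y axis), of the 56 tested segments by role (x axis: heavy and light constant genes, heavy, kappa and lambda V segments, J segments), with 1 panel per day, red points for adjusted p under 0.05 and shapes for Ighm, Ighd, Ighg1 and Igkc. The medians are -1.07 at 0 d, -1.29 at 3 d and -0.53 at 7 d, and only the 0 d panel holds red points, 4 in all.

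Over the mean of the 3 days, 4 of 56 segments fell in periodontitis and none rose, where 2.66% of all genes tested fell and 2.01% rose. Ighm gave -1.28 ± 0.26 (adjusted p = 0.0127, edgeR), Ighd -1.25 ± 0.30 (0.0258), Igkv19-93 -2.74 ± 0.59 (0.0159) and Iglc1, the main lambda constant gene, -1.89 ± 0.50 (0.0421) on the log2 scale. Ighm and Igkv19-93 kept an adjusted p under 0.05 whichever single library was left out. With both libraries with salivary gland transcripts left out, Igkv19-93 gave -2.51 and missed the threshold (adjusted p = 0.0549, edgeR). Without replicate 2 of 0 d periodontitis, which held the only counts of that group, the change of Igkv19-93 was -3.65. Ighd kept it in 12 of 18 such fits and reached 0.0505 to 0.0604 without replicate 3 of 0 d control, 3 of 3 d control, 2 of 7 d control, 1 of 0 d periodontitis, or 1 or 3 of 3 d periodontitis. Iglc1 kept it in 8 of 18 and reached 0.0510 to 0.104 without replicate 2 or 3 of 0 d control, 3 of 3 d control, 2 of 7 d control, or 1 or 3 of 0 d, 1 or 2 of 3 d or 1 or 2 of 7 d periodontitis. Of the 56 segments 47 were negative, with a median of -1.11. The 3 daily comparisons use separate libraries, whereas this mean is built from them.

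In control sockets Ighm and Ighd fell after 0 d and Ighg1 rose. Ighm, with 122, 154 and 308 CPM at 0 d, 38.2, 38.7 and 45.8 CPM at 3 d and 38.3, 82.1 and 64.8 CPM at 7 d, lay lower without overlap on both later days. It fell by 2.25 ± 0.47 on the log2 scale at 3 d against 0 d (adjusted p = 0.00155, edgeR) and by 1.66 ± 0.46 at 7 d against 0 d (0.00834). Ighd fell by 2.36 ± 0.51 (0.00224) and by 2.0 ± 0.51 (0.00491). Without replicate 3 of 0 d control the 7 d change of Ighm was -1.15 with an adjusted p of 0.0644.

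Ighg1 (ENSMUSG00000076614, chr12:113325240-113330523, minus strand), the constant gene of IgG1, rose in control sockets. Control sockets held 2, 3 and 0 counts of Ighg1 at 0 d, 23, 82 and 43 at 3 d and 105, 595 and 70 at 7 d, which is 0.132, 0.194 and 0 CPM, 1.28, 4.96 and 2.67 CPM and 6.47, 37.4 and 3.99 CPM. No library of a later day overlapped 0 d, and replicate 2 of 7 d stood far above the others. Ighg1 rose by 4.70 ± 1.16 on the log2 scale at 3 d against 0 d (adjusted p = 0.00528, edgeR) and by 7.12 ± 1.19 at 7 d against 0 d (2.0e-04), with 5 counts behind the 0 d group. Without replicate 2 of 7 d control the 7 d change was 5.51 (adjusted p = 8.4e-04), and without replicate 2 of 3 d control the 3 d change was 4.11 (0.0202). Without replicate 2 of 0 d control the changes were 5.38 at 3 d and 7.80 at 7 d, both still past the test.

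In all, 1 of 56 segments rose and 4 fell in control sockets at 3 d against 0 d, where 16.4% of all genes rose and 18.3% fell. At 7 d against 0 d it was again 1 and 4, where 20% rose and 21.4% fell, so these shares of segments lay below those of all genes. The others that fell were Iglc2 at 3 d (-2.35 ± 0.87, adjusted p = 0.0462), Ighv1-55 on both days and Ighv14-3 at 7 d. Ighv1-55 had 0, 1 and 0 counts at 3 d and 0, 2 and 0 at 7 d, against 24, 33 and 9 at 0 d. It was 71.2-fold lower at 3 d, with a counting interval of 12.3 to 2854, and 34.9-fold lower at 7 d, with one of 9.30 to 295. Ighv14-3 had no count at 7 d, against 9, 33 and 2 at 0 d, which is at least 15.5-fold lower against a floor of 3 counts over the group. Iglc2 kept an adjusted p under 0.05 in 8 of 18 fits with 1 library left out. It reached 0.0518 to 0.147 without any 1 library of 0 d control, replicate 1 or 3 of 3 d control, 3 of 7 d control, any 1 library of 3 d periodontitis or replicate 1 of 7 d periodontitis. With replicate 2 of 3 d control left out its change was -3.04, still past the test. Ighv14-3 kept it in 14 of 18 and reached 0.142 without replicate 2 of 0 d control, and it was 0.0786, 0.0855 and 0.0896 without replicates 1, 2 and 3 of 7 d control. Ighv1-55 rested on replicate 2 for its later counts: without it no count remained at 3 d or at 7 d.

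In periodontitis sockets Ighm was at 27.5, 102 and 62.3 CPM at 0 d, 14.5, 19.2 and 23.7 CPM at 3 d and 28.0, 14.6 and 42.6 CPM at 7 d. The 3 d libraries all lay below those of 0 d and the 7 d libraries overlapped them. At 3 d against 0 d Ighm fell by 1.74 ± 0.47 on the log2 scale (adjusted p = 0.0150, edgeR) and Ighd by 1.65 ± 0.52 (0.0349), and they were the only segments called, where 9.02% of all genes rose and 12.2% fell. Without replicate 2 of 0 d periodontitis the adjusted p was 0.0849 for Ighm and 0.100 for Ighd, and without replicate 1 of 3 d periodontitis 0.0692 and 0.139. Ighd also missed the threshold without replicate 3 of 0 d (0.0873) and of 3 d (0.123), and changed by -2.41 without replicate 2 of 3 d, still past the test. At 7 d against 0 d 1 segment rose and none fell, where 18.3% of all genes rose and 20.7% fell. It was Igkv1-88, with 9, 0 and 51 counts at 7 d, against none at 0 d, at least 19.0-fold higher against a floor of 3 counts over the group (adjusted p = 0.0207). Its adjusted p was 0.104 without replicate 3 of 7 d periodontitis, 0.0521 without replicate 1 of 0 d periodontitis and 0.0558 without replicate 3 of 0 d periodontitis.

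The course of Ighg1 in periodontitis sockets was flatter by its values. It had 12, 1 and 1 counts at 0 d, 4, 13 and 16 at 3 d and 29, 9 and 34 at 7 d in periodontitis sockets. At 3 d this is 0.233, 0.738 and 0.993 CPM in periodontitis, against 1.28, 4.96 and 2.67 CPM in control, and at 7 d 1.70, 0.584 and 1.88 CPM in periodontitis, against 6.47, 37.4 and 3.99 CPM in control. On both days every periodontitis library lay below every control library. The edgeR log2 fold change was -2.17 ± 0.92 at 3 d (adjusted p = 0.511) and -3.51 ± 0.91 at 7 d (0.341), neither past the test. The 7 d value was -1.90 (0.751) without replicate 2 of 7 d control. DESeq2 gave -3.50 at 7 d with an adjusted p of 0.0214.

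The change of Ighg1 from 0 d to 7 d was smaller in periodontitis than in control by 4.87 ± 1.60 on the log2 scale, with an unadjusted p of 0.00791 and an adjusted p of 0.169 in edgeR. DESeq2 gave -4.96 for this difference of changes with an adjusted p of 0.0256. Without replicate 1 of 0 d periodontitis, which held 12 of the 14 counts of that group, the edgeR value was -2.83 (0.663), and without replicate 2 of 7 d control it was -3.26 (0.288). For the change to 3 d the difference was -3.54 ± 1.63 (adjusted p = 0.413). In edgeR no segment passed the test of the difference between arms in either change, with 2 of 56 and 6 of 56 at an unadjusted p under 0.05. Of all genes tested, 0.0107% were higher and 0.00535% lower in the first, and 0.0321% and 0.0107% in the second. DESeq2 called no segment in the first and Ighg1 alone in the second, and its shares of all genes are not given here.

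Among the heavy chain classes the share of the IgG genes was higher after 0 d in both arms, while the share of Ighm overlapped between 0 d and each later day. Ighm held 74.2%, 39.2% and 73.3% of heavy constant counts in periodontitis at 0 d, 50.8%, 26.1% and 39.3% at 3 d and 31.6%, 54.1% and 30.6% at 7 d. In control sockets it held 68.4%, 48.7% and 83.3% at 0 d, 56.4%, 27.3% and 32.7% at 3 d and 26.0%, 39.8% and 53.7% at 7 d. The arms overlapped on every day. The 4 IgG genes together held 12.6%, 18.7% and 7.50% in periodontitis at 0 d, 25.2%, 31.5% and 28.2% at 3 d and 35.6%, 21.4% and 25.0% at 7 d. In control they held 14.9%, 11.6% and 3.05% at 0 d, 23.8%, 33.4% and 19.2% at 3 d and 25.9%, 47.5% and 17.2% at 7 d. Both later days lay above 0 d without overlap in both arms, and the arms overlapped on each day. The summed IgG level did not separate the days in this way: it was 4.69, 48.4 and 6.37 CPM at 0 d and 7.21, 23.2 and 17.0 CPM at 3 d in periodontitis, and 26.5, 36.7 and 11.3 CPM at 0 d and 16.1, 47.3 and 26.9 CPM at 3 d in control. Shares over the segments were described by library and not tested.

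Within these shares Ighg1 separated the arms on the later days. It made up 1.91%, 2.16% and 1.35% of heavy constant counts in 7 d periodontitis, against 4.39%, 18.1% and 3.31% in 7 d control. The exact binomial 95% intervals were 1.29% to 2.74%, 0.994% to 4.07% and 0.937% to 1.88% in the periodontitis libraries, against 3.60% to 5.28%, 16.8% to 19.5% and 2.59% to 4.16% in the control libraries, and they cover counting error only. As a share of the 4 IgG genes Ighg1 was 5.37%, 10.1% and 5.41% in 7 d periodontitis, against 16.9%, 38.1% and 19.2% in 7 d control. At 3 d it was 3.23%, 3.19% and 5.84% of IgG in periodontitis, against 7.96%, 10.5% and 9.93% in control. On both days the arms did not overlap, so the lower Ighg1 of periodontitis libraries was also seen relative to the other IgG genes. Ighg1 and Ighg2c, its nearest constant gene, share 77.3% of the letters of the shorter transcript, while Ighg2b and Ighg2c share 87.8%.

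Igha, the constant gene of the antibody of mucosal secretions, varied widely between libraries of 1 group. Its share of heavy constant counts was 6.16%, 40.1% and 13.5% at 0 d, 21.5%, 38.8% and 31.0% at 3 d and 30.3%, 21.2% and 42.7% at 7 d in periodontitis. In control it was 10.9%, 36.3% and 7.81% at 0 d, 16.9%, 37.6% and 45.1% at 3 d and 46.2%, 10.2% and 26.6% at 7 d. Arms and days overlapped throughout. Salivary glands hold IgA plasma cells. The 14 genes of a salivary gland list summed to 147 CPM in replicate 2 of 3 d control and 406 CPM in replicate 3 of 7 d control, and to between 4.22 and 20.5 CPM in the other 16 libraries. Its part in the Igha level was not tested. Ighe, the IgE constant gene, had 3 counts in 1 library of 3 d periodontitis, 2 in 1 library of 3 d control and none in the other 16.

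**Figure D3:**
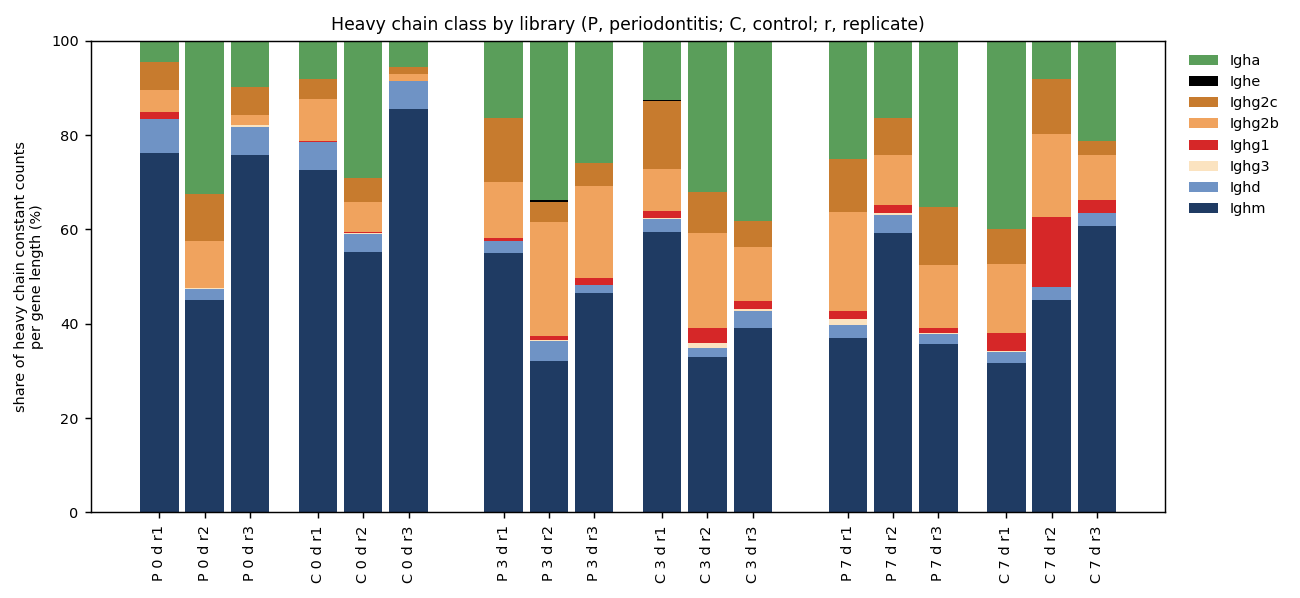
Share of each heavy chain class (y axis, % of heavy constant counts per gene length) in each of the 18 libraries (x axis, by day, periodontitis P left of control C, r for replicate). The Ighg1 band is widest in replicate 2 of 7 d control, where it held 18.1% of counts before the length correction, and every periodontitis library had 2.16% or less.

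Levels can be compared between genes only per length. On the scale of CPM per kilobase of transcript, Igkc was highest with a mean over the 18 libraries of 85.8, before Ighm with 36.1, Igha with 14.1, Ighg2b with 6.76, Iglc1 with 5.31, Ighg2c with 4.37, Ighd with 2.46, Iglc2 with 2.0, Iglc3 with 1.57, Ighg1 with 1.37 and Ighg3 with 0.148. Igkc lay above Ighm in 18 of 18 libraries and Ighm above Igha in 16, but Iglc1 lay above Ighg2c in 10, Ighd above Iglc2 in 11 and Iglc2 above Iglc3 in 7, so these neighbours did not keep an order beyond the spread of the libraries. Light over heavy constant transcripts per length gave a ratio of 0.902, 1.56 and 1.25 at 0 d, 1.39, 2.07 and 1.49 at 3 d and 1.65, 1.99 and 1.61 at 7 d in periodontitis. In control the ratio was 1.30, 1.41 and 0.944 at 0 d, 1.33, 1.54 and 1.46 at 3 d and 1.88, 1.78 and 1.73 at 7 d. In both arms the 7 d libraries lay above those of 0 d without overlap.

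Lambda light chains are the minor light chains of the mouse. Their constant genes summed to 1.26, 6.54 and 2.24 CPM in 0 d periodontitis, against 6.09, 15.0 and 7.75 CPM in 0 d control, and the arms overlapped. They summed to 0.698, 1.02 and 1.24 CPM in 3 d periodontitis, against 1.39, 2.54 and 3.91 CPM in 3 d control, and to 2.75, 0.844 and 2.82 CPM in 7 d periodontitis, against 5.61, 13.3 and 3.31 CPM in 7 d control. Periodontitis libraries lay below control libraries without overlap on these later days. The lambda share of light constant counts overlapped between arms on each day and ran from 2.95% to 13.8% in periodontitis and from 5.01% to 14.7% in control. Iglc1 (ENSMUSG00000105906, chr16:19061618-19062071, minus strand) had 0.994, 0.649 and 1.38 CPM in 7 d periodontitis, against 3.64, 9.17 and 1.54 CPM in 7 d control. The groups lay side by side without overlap, at -2.23 ± 0.85 on the log2 scale and an adjusted p of 0.641 in edgeR. All 4 light constant genes tested had a negative fold change on each day. Iglc2 and Iglc3 share 95.4% of their letters, so reads of one may have been counted for the other.

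V segments name the heavy or light chain family a B cell uses. Their counts per library were low: heavy V segments drew 53, 575 and 136 counts in 0 d periodontitis, against 276, 619 and 710 in 0 d control, and as few as 24 in replicate 2 of 7 d periodontitis. The number of different heavy V segments seen was 22, 54 and 41 in 0 d periodontitis, against 50, 62 and 80 in 0 d control, but this number moves with the counts. After thinning every library to 24 heavy V counts, the effective number of segments (the exponential of Shannon entropy, the number of equally used segments that would give the same spread) was 12.9, 14.5 and 12.6 in 0 d periodontitis, against 15.8, 15.2 and 14.9 in 0 d control. The periodontitis libraries lay below the control libraries by a small margin, and overlapped them when segments were summed by family. At 3 d it was 12.6, 10.6 and 10.5 in periodontitis, against 14.3, 10.2 and 14.8 in control. At 7 d it was 14.02, 8.18 and 12.7 in periodontitis, against 13.7, 11.3 and 14.03 in control, and the arms overlapped on both later days.

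Kappa V segments were thinned to 71 counts. Their effective number was 11.1, 20.7 and 21.3 in 0 d periodontitis, against 21.1, 23.9 and 24.2 in 0 d control. At 3 d it was 10.5, 16.6 and 14.5 in periodontitis, against 16.7, 18.0 and 24.3 in control. At 7 d it was 21.8, 8.80 and 16.9 in periodontitis, against 18.8, 13.95 and 22.0 in control. Only the 3 d libraries lay apart, with a mean of 13.9 ± 3.09 in periodontitis and 19.7 ± 4.04 in control (SD, n = 3 each), and their nearest libraries differed by little. By the inverse Simpson index the 3 d arms overlapped, with up to 12.96 in periodontitis and as little as 12.65 in control, and from unthinned counts they overlapped too, with up to 19.6 in periodontitis and as little as 19.1 in control.

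**Figure D4:**
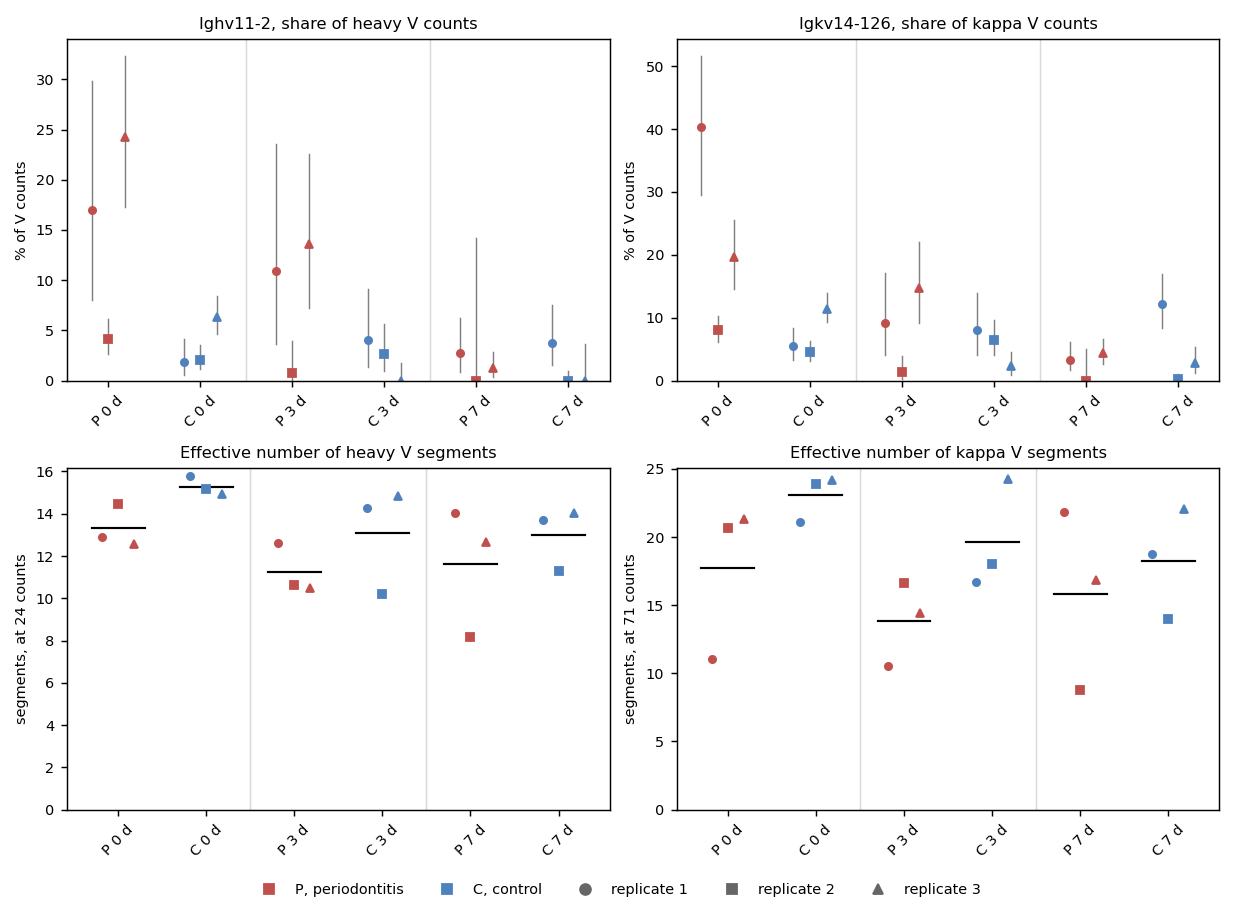
Use of V segments in each library, with the effective number of heavy (thinned to 24 counts) and kappa (thinned to 71 counts) V segments and the percentage of V counts taken by Ighv11-2 and Igkv14-126 (y axes), each periodontitis group (P) left of its control group (C), a point per library, lines at the mean of 3 and vertical bars for exact 95% intervals of the shares. Ighv11-2 reaches 24.3% and Igkv14-126 40.2% in 0 d periodontitis, in different libraries.

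Ighv11-2 and Igkv14-126, whose ends are printed above, are known in the mouse as the pair that encodes phosphatidylcholine-binding IgM of B-1 cells, a B cell lineage that makes natural antibody. Ighv11-2 took 17.0%, 4.17% and 24.3% of heavy V counts at 0 d, 10.9%, 0.719% and 13.6% at 3 d and 2.70%, 0% and 1.25% at 7 d in periodontitis. In control it took 1.81%, 2.10% and 6.34% at 0 d, 4.03%, 2.64% and 0% at 3 d and 3.72%, 0% and 0% at 7 d. Igkv14-126 took 40.2%, 8.03% and 19.6% of kappa V counts at 0 d, 9.09%, 1.38% and 14.7% at 3 d and 3.36%, 0% and 4.33% at 7 d in periodontitis. In control it took 5.44%, 4.50% and 11.4% at 0 d, 8.03%, 6.45% and 2.27% at 3 d and 12.1%, 0.181% and 2.78% at 7 d. The highest shares of both stood in replicates 1 and 3 of 0 d periodontitis, and each was at 0 in replicate 2 of 7 d periodontitis.

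For both segments the 7 d periodontitis libraries lay below those of 0 d, while the arms overlapped at 0 d. The exact 95% interval of the highest shares was 17.3% to 32.4% for Ighv11-2 and 29.6% to 51.7% for Igkv14-126. In level the arms were close at 0 d. Ighv11-2 had 0.541, 1.67 and 1.95 CPM in periodontitis, against 0.331, 0.843 and 2.75 CPM in control, a log2 fold change of 0.08 ± 1.02 (adjusted p = 0.974, edgeR). Igkv14-126 had 1.98, 3.83 and 2.48 CPM in periodontitis, against 1.26, 1.94 and 5.37 CPM in control, a log2 fold change of -0.05 ± 0.91 (0.980). The arms overlapped for both segments. At 7 d against 0 d Ighv11-2 changed by -2.79 ± 1.19 (0.0746) in periodontitis and by -3.14 ± 1.25 (0.0544) in control, neither past the test. Ighv11-2 shares 98.9% of its letters with Ighv11-1, which had 1 count in all, and the nearest V segment to Igkv14-126 shares 91.6%.

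The next abundant V segments, from Ighv1-80 to Iglv3, passed no test (Iglv3 was too low to be tested), and their libraries often differed widely within a group. Ighv1-80, the heavy V segment with the highest mean level, had 0, 12 and 1 counts in 0 d periodontitis, against 8, 43 and 112 in 0 d control, and no more than 16 in a library of a later day. Its log2 fold change at 0 d was -3.54 ± 1.29 with an adjusted p of 0.0923 in edgeR. Igkv1-117, the highest kappa segment, had 0.0601, 8.63 and 0.531 CPM in 0 d periodontitis, against 1.52, 3.56 and 1.89 CPM in 0 d control. It shares 97.5% of its letters with Igkv1-110, so part of its reads may belong there. Iglv1, the main lambda V segment, had 1.75, 1.17 and 1.60 CPM in 7 d periodontitis, against 2.28, 7.35 and 1.54 CPM in 7 d control. The other named segments, Ighv1-64, Ighv2-2, Ighv1-26, Igkv15-103, Igkv10-96, Iglv2 and Iglv3, ran from 0 to 4.67 CPM in single libraries. Among them Ighv1-26 lay lower in periodontitis without overlap at 0 d and 3 d, Ighv2-2 and Igkv10-96 at 3 d and Igkv15-103 at 7 d. For Igkv15-103 this was no count in 7 d periodontitis, against 23, 1 and 1 counts in 7 d control. The Ighv1 family, with 53 of the 113 heavy V segments, took a mean of 55.3% of heavy V counts, from 37.5% to 87.5% by library. Igkv1 took 19.5% and Igkv4, the largest kappa family with 26 segments, 12.6% of kappa V counts.

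The leading heavy V segment was a different one in most libraries. In 0 d periodontitis it was Ighv11-2 with 17.0%, Ighv1-12 with 12.7% and Ighv11-2 with 24.3% of heavy V counts, against Ighv1-55 with 8.70%, Ighv2-2 with 8.40% and Ighv1-80 with 15.8% in 0 d control. In 3 d periodontitis Ighv11-2, Ighv1-58 and Ighv6-3 tied at 10.9% (5 counts each) in replicate 1, and the lead was Ighv7-3 with 16.5% and Ighv8-12 with 21.6% in the other libraries, against Ighv1-15 with 12.9%, Ighv1-85 with 27.8% and Ighv1-53 with 10.7% in 3 d control. In 7 d periodontitis it was Ighv5-17 with 9.19%, Ighv1-81 with 37.5% and Ighv1-64 with 12.8%, against a tie of Ighv1-74 and Ighv14-2 at 9.04% (17 counts each), Ighv1-22 with 15.3% and Ighv6-3 with 13.0% in 7 d control. Ighv1-81 led with 9 of 24 counts, so its share is imprecise. These segments were named after their values were seen.

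Some segments had most of their level in 1 library. Of 74 V segments with at least 50 counts, 7 had more than 50% of their CPM in a single library, beside a median of 30.8% for the highest library. Ighv1-12 had 73 of its 78 counts in replicate 2 of 0 d periodontitis. Ighv1-85 had 63 of 90 in replicate 2 of 3 d control, Igkv8-24 had 81 of 129 in replicate 3 of 0 d control and Igkv9-124 had 45 of 80 in replicate 3 of 7 d periodontitis. The remaining 3, Igkv6-32 with 111 of 172 counts, Ighv1-22 with 61 of 97 and Ighv2-3 with 32 of 51, had their highest level in replicate 2 of 7 d control. That is the library with 595 Ighg1 counts and an Ighg1 share of 18.1%. Bulk counts do not say which V, J and constant gene stood on 1 transcript. Of 74 such segments these were chosen by their values. Near-copies limit single V counts further: 24 of 113 heavy and 18 of 102 kappa segments share at least 97% of their letters with another segment.

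J and D segments gave few counts. Ighj4 had 2, 8 and 5 counts in 0 d periodontitis, against 25, 11 and 47 in 0 d control, and Igkj5 had 0, 5 and 2, against 4, 18 and 22. Ighj4 lay apart between these groups and Igkj5 overlapped. Their log2 fold changes were -2.43 ± 1.09 (adjusted p = 0.169, edgeR) and -2.57 ± 1.29 (0.220). Of the D segments Ighd1-1 had 5 counts, Ighd3-1 had 3 and Ighd3-2 and Ighd5-2 had 1 each.

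Genes of the B lineage that are no immunoglobulin segments were counted beside these results by lists. At 0 d, where 3.47% of all genes tested fell and 4.81% rose, 9 of 15 mature B cell genes tested fell in periodontitis. None of them rose, and their median log2 fold change was -1.92. Of 11 B precursor and recombination genes 2 fell, with a median of -1.38. Cd79a, a part of the B cell receptor complex, had 4.51, 15.3 and 10.7 CPM in 0 d periodontitis, against 31.8, 39.1 and 48.2 CPM in 0 d control. Rag1, a subunit of the recombinase that joins V, D and J segments, had 1.26, 5.50 and 3.72 CPM, against 10.8, 14.5 and 34.2 CPM. Both separated the arms without overlap, at -1.96 ± 0.42 (adjusted p = 0.0148, edgeR) and -2.51 ± 0.71 (0.0425) on the log2 scale. Of 13 plasma cell genes tested 1 fell, Pou2af1, a B cell coactivator, by 1.95 ± 0.47 (0.0236), and 1 rose, Fkbp11 by 0.77 (0.0379), with a list median of -0.35. Whether the rise of Fkbp11 came from plasma cells was not tested. Jchain, which joins IgM and IgA into polymers, had 2.04, 23.9 and 4.90 CPM in 0 d periodontitis, against 10.1, 24.6 and 13.4 CPM in 0 d control, and did not pass the test (-0.65 ± 0.68, adjusted p = 0.594).

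Other lists around antibody formation held 3 genes that rose at 0 d and none that fell, where 4.81% of all genes tested rose and 3.47% fell. Of 10 germinal centre and switching genes 1 rose, Fas (1.06, adjusted p = 0.0192). Of 11 immunoglobulin receptor genes none passed the test. Of 13 survival and homing genes 2 rose, Cxcl13, a chemokine that draws B cells, by 3.19 ± 0.76 (0.0236) and Il4 by 1.79 (0.0486). Over the mean of days, where 2.66% of all genes fell and 2.01% rose, 9 of 15 mature B cell genes and 6 of 11 B precursor genes fell and none rose, 3 of 13 plasma cell genes fell, Ms4a2 of the receptor list fell, Fas rose, Cxcl13 rose by 1.74 (0.0319) and Tnfsf13b, a B cell survival factor, fell by 0.72 (0.0489). At 3 d and at 7 d no gene of these 6 lists passed the test. With time, 12 of 15 mature B cell genes and 8 of 11 B precursor genes fell in control at 3 d against 0 d. There 18.3% of all genes fell and 16.4% rose. Of 13 plasma cell genes 4 rose and 4 fell, and 5 had a positive fold change. These plasma cell genes did not move as a set. From 0 d to 3 d the control mean of Txndc5 went from 214 to 396 CPM and that of Sdc1 from 308 to 423 CPM. That of Pou2af1 went from 30.6 to 4.06 CPM, of Irf4 from 11.8 to 3.59 CPM and of Mzb1 from 4.92 to 2.46 CPM. The part of plasma cells in the levels of this list was not tested. Its counts therefore do not show whether plasma cell transcripts changed. At the same step in periodontitis 7 of 15 mature B cell genes fell, 3 of 11 B precursor genes fell and 1 rose, and 2 plasma cell genes rose and 1 fell, where 12.2% of all genes fell and 9.02% rose. No gene of these lists passed the test of the difference between arms.

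**Figure D5:**
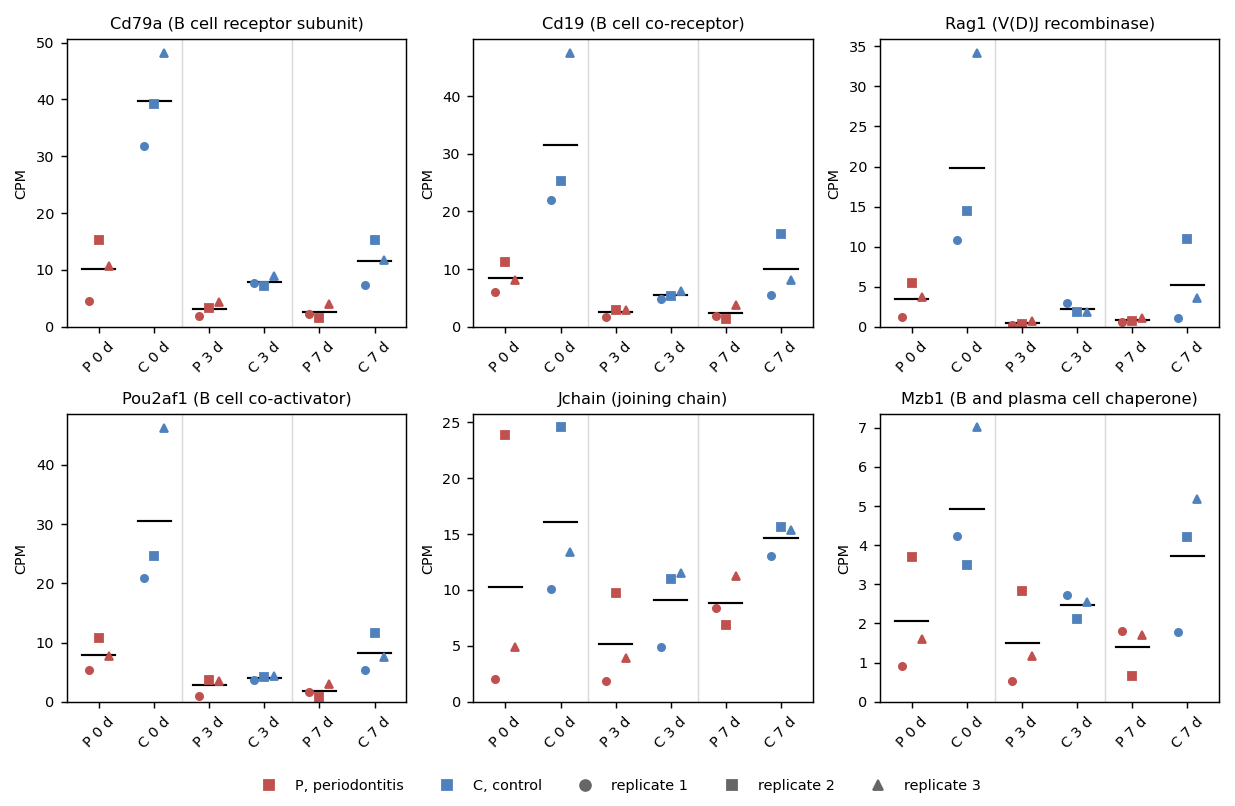
Levels of B lineage genes in each library (y axes, CPM), each periodontitis group (P) left of its control group (C) at 0 d, 3 d and 7 d, with a point per library and a line at the mean of 3. Cd79a at 0 d lies between 4.51 and 15.3 CPM in periodontitis and between 31.8 and 48.2 CPM in control, while Jchain overlaps between the arms on that day.

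Markers of other cell types moved with the arms at 0 d, where 4.81% of all genes tested rose and 3.47% fell. Of 13 erythroid genes 6 fell, with a median of -2.08, and the list summed to between 3708 and 4474 CPM in periodontitis and between 11575 and 13725 CPM in control. The 14 neutrophil and marrow genes summed to between 2317 and 9443 CPM in periodontitis and between 10217 and 20607 CPM in control, a median of -1.59 with none past the test at 0 d. Of 16 autonomic ganglion genes 8 rose, with a median of 7.17, and they summed to 2290, 65.8 and 1329 CPM in 0 d periodontitis, 701, 974 and 22.1 CPM in 3 d periodontitis and 1052 CPM in 1 library of 3 d control, against 14.9 to 33.6 CPM in the other 11. Of 14 skeletal muscle genes 5 rose, of 12 T cell genes 1 rose, and of 4 salivary and 3 lymph node stroma genes tested none passed. Over the mean of days, where 2.66% of all genes tested fell and 2.01% rose, 13 of 14 neutrophil and marrow genes fell and none rose. Their median was -1.93. Of 13 erythroid genes 6 fell, with a median of -1.41. There 8 of 14 skeletal muscle and 2 of 12 T cell genes rose, and no ganglion gene passed. The part of these cell types in the immunoglobulin results was not tested. Leaving out the 5 libraries with 701 CPM of ganglion genes or more left 1 library of 0 d and 1 of 3 d periodontitis, too few to read calls from. Ighm was then -0.92 at 0 d and -0.94 over the mean of days between arms, and -2.07 at 3 d against 0 d in periodontitis.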

How the data were processed

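Bulk RNA-seq of 18 libraries, whose titles give arm and day, was analysed from the deposited table of raw read counts per gene, whole numbers that are not normalized. Per the labels' protocols, TRIzol served to extract RNA and the NEBNext Ultra RNA kit to prepare libraries. The tools named are HISAT2, StringTie and SAMtools, with mouse build mm9, per the submitters' processing notes. The program that made the counts and its strand setting are not stated, so reads of overlapping genes on opposite strands cannot be told apart. The coordinates and identifiers of all 264 members match GENCODE M21 on GRCm38, and coordinates and letters are given from that annotation.

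Genes kept by edgeR's filterByExpr (18697) were scaled by TMM and fitted in edgeR 4.0.16 (R 4.3.3, limma 3.58.1) by glmQLFit and glmQLFTest, using a mean for every group and a spread shared by all 18 libraries. Each comparison had its own Benjamini-Hochberg adjustment, and genes were called under 0.05, and SEs were derived from the F statistics. P-values measure the spread between the 3 replicates a group, called biological in the design text. CPM used TMM-scaled totals. In tests on simulated data, edgeR called 49% of genes changed 2-fold and 89% of those changed 4-fold at 0 d over 18289 genes, and 42% and 83% at 7 d over 18301 genes. The changed genes were drawn only above a mean level that many tested V and J segments do not reach. These shares therefore do not hold for such segments. A group with no count was set to a floor of 3 counts, and intervals are at the 95% level. V counts were thinned 200 times to the smallest library. Identity is the number of equal letters in the alignment of 2 transcripts, as a share of the length of the shorter one.

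Members and gene lists were chosen with earlier results of these data known. Named are all constant genes, of which Iglc4 had only 3 counts, the 5 most abundant V segments per chain and called segments (up to 5 a comparison). The most abundant J segments of the heavy and kappa loci and the most abundant D segment are also named. Other segments were named after their values were seen. Alternatives were RLE size factors, scaling without the immunoglobulin rows, no low-count filter, DESeq2 1.42.0, only the groups compared, a replicate block, leaving out libraries, other weightings and other diversity indices.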

Additional observations from a re-analysis of the deposited data

How the results depend on the processing

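At the depth of these libraries most V, D and J segments have few counts, so single segments are limited by counting and by near-copies. Over the fits that leave out 1 library, called segments numbered 0 to 7 for periodontitis against control at 0 d (4 with all libraries), 2 to 6 over the mean of days (4), 0 to 5 at 3 d against 0 d (2) and 0 to 3 at 7 d against 0 d in periodontitis (1), and 4 to 7 at 3 d (5) and 4 to 9 at 7 d (5) against 0 d in control. They were 0 throughout for the arms at 3 d and 7 d and for both differences of changes.

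The cause of the shifts below was not tested. Counts under other settings, here and above, are given without the share of all genes called in the same setting. They do not show how the segments stood beside other genes. For periodontitis against control at 0 d the count was 0 with only the groups compared and 1 without the 2 libraries with salivary gland transcripts. Leaving out the 5 ganglion-rich libraries was chosen after seeing the data. It leaves 1 library of 0 d and 1 of 3 d periodontitis, so its counts are not given. Over the mean of days the count was 7 with no low-count filter and 8 in DESeq2. For periodontitis at 3 d against 0 d it was 5 and 9 under these settings and 1 with only the groups compared. At 7 d against 0 d in periodontitis it was 4 with no filter, 6 in DESeq2 and 0 with only the groups compared. In control it was 12 with no filter and 12 with only the groups compared at 3 d, and 11 with no filter, 8 in DESeq2 and 8 with only the groups compared at 7 d. DESeq2 gave 1 at 7 d between arms and 1 for the difference of the changes to 7 d. RLE size factors and scaling without the immunoglobulin rows moved no count by more than 1.5 times, though Igkv8-24 missed the threshold at 0 d under both, at 0.0510.

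Ighg1 at 0 d, 1.37 on the log2 scale and not called, ran from -0.68 without replicate 1 of 0 d periodontitis to 2.05 without replicate 2 of 0 d control, and was -0.55 without the ganglion-rich libraries. The labels do not say whether replicate numbers pair the samples. Same-numbered libraries of the arms correlated from -0.193 to 0.659, with 0.659 and 0.525 for replicates 2 and 3 at 3 d. Such mixed values cannot settle whether the numbers pair them. A replicate block gave 2 called segments at 7 d against 0 d in periodontitis and 8 at 3 d against 0 d in control, and moved no other count by more than 1.5 times.

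The lambda share taken from V counts was 10.98% in 3 d and 13.7% in 7 d periodontitis and 10.9% in 3 d control. The effective number of heavy V segments by inverse Simpson index was 11.1 and 9.52 in 0 d and 3 d periodontitis and 13.5 and 11.3 in 0 d and 7 d control. From unthinned counts it was 25.0, 15.8 and 20.1 at 0 d, 3 d and 7 d in periodontitis and 37.8, 25.2 and 23.3 in control, and by V family 4.67, 4.62 and 3.63 in periodontitis and 4.54, 3.45 and 3.68 in control. For kappa the inverse Simpson index gave 11.3 and 9.99 in 0 d and 3 d periodontitis and 17.7, 15.3 and 13.8 in 0 d, 3 d and 7 d control, unthinned counts 33.3, 24.6 and 23.4 in control, and V families 8.86, 7.44 and 7.87 in periodontitis and 10.3, 10.1 and 9.53 in control. Summed levels and class shares moved by less than 1 SD under RLE size factors, library totals and weighting by counts. Leaving out 1 library moved none of these group means by 1 SD, which it cannot do with 3 libraries a group. Some ranges were still wide. The summed level of 0 d periodontitis, 215 CPM, ran from 96.1 without replicate 2 to 296 CPM. The Ighg1 share of 7 d control, 8.60%, ran from 3.85% without replicate 2 to 11.2%. The Igha share ran from 9.85% to 26.8% in 0 d periodontitis, and from 9.36% to 23.6% in 0 d and 18.4% to 36.4% in 7 d control.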
